A study of Mus musculus with 4 samples.

Results

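Gluconeogenesis is the route by which the liver makes glucose from lactate, amino acids and glycerol when no food arrives. Most of its steps are glycolytic reactions run backwards by shared enzymes, and a small set of enzymes carries the steps that glycolysis cannot reverse. Described here are the transcripts of 7 genes for those steps in mouse liver. They are G6pc, G6pc3 and Slc37a4 of the glucose-6-phosphatase system, the phosphoenolpyruvate carboxykinases Pck1 and Pck2, the fructose-1,6-bisphosphatase Fbp1, and the pyruvate carboxylase Pcx. The genes were chosen by name for their role in the pathway, with earlier results of these data known, and the rule itself uses no measured value. All 7 were on the array, with 8 of its 39429 probes and 17 of its 43020 gene spots.

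The 4 arrays compared livers of male C57BL/6J mice (strain label C57/Bl6) aged 8 to 12 weeks. A fasted mouse had been without food for 24 h. A refed mouse had been without food for the same 24 h and then had food for 2 h, so the comparison is of fasting with early refeeding, and no mouse was fed throughout. Each array held 1 fasted and 1 refed liver, so that there were 4 of each. The fasted liver carried Cy5 on replicates 1 and 2 and Cy3 on replicates 3 and 4. In bulk liver RNA, more cells of a type and more RNA per cell cannot be told apart.

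Each value below is a log2 ratio of fasted over refed liver on 1 array, or the mean of the 4, so that 1 is a doubling in the fasted liver. A gene was called changed where limma gave an adjusted p under 0.10 and the mean was at least 1.5-fold (0.58 on the log2 scale). Across the 14209 named genes with a probe above background, 273 were called higher and 313 lower, and the median ratio was 0.01. All 8 hepatocyte markers had a kept probe and 0 were called, with a median of 0.13. Markers of other cells differed between arrays. Pancreatic acinar genes were higher in the refed liver of replicate 3, where their mean log2 ratio was -3.26 against 0.04 to 0.06 on the others. The 4 measured blood markers had array means of 1.34, -0.26, 1.74 and 0.21, and 0 were called, and 5 measured Kupffer and immune markers followed the same arrays at 0.33, -0.14, 0.34 and -0.03. Their part in the results below was not tested.

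Of the 7 gluconeogenic genes, 6 had a kept probe, and 2 of these 6 were called higher in the fasted liver, G6pc and Pck1. Among all genes, 1.92% were called higher. None of the 6 was called lower, against 2.20% of all genes. All 6 had a positive mean ratio, so that none could be called lower by limma or SAM at any limit on p. In both G6pc and Pck1 the 4 fasted levels all lay above the 4 refed levels, a separation found for 6.24% of genes, and in the other 4 genes the groups overlapped. The median of the 6 mean ratios was 0.39.

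**Figure D1:**
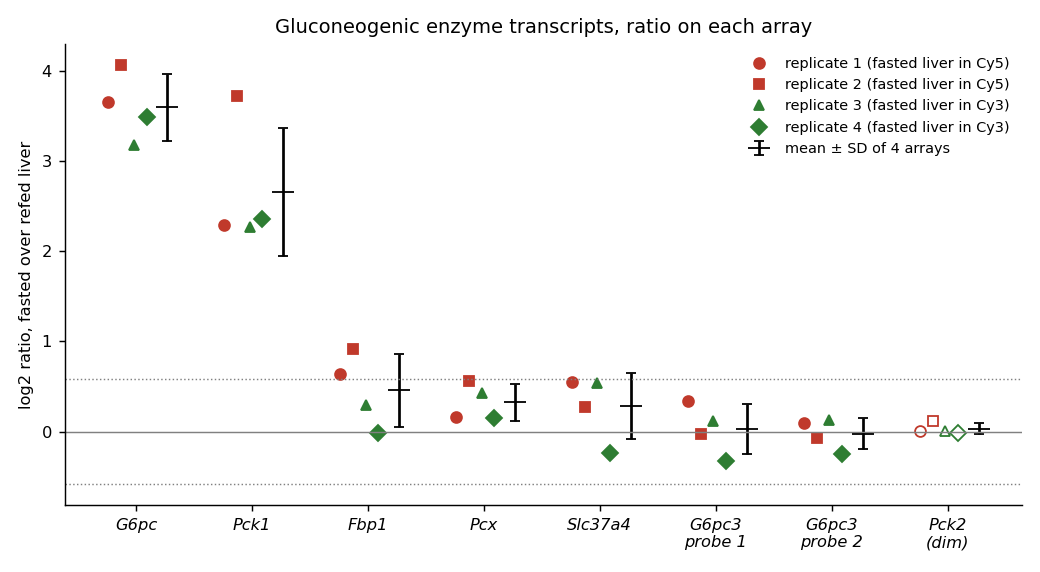
Log2 ratio of fasted over refed liver on each of the 4 arrays for the 8 probes of the 7 genes, coloured by the dye of the fasted liver, with the mean ± SD beside them; open symbols mark the Pck2 probe, which was not well above background, and dotted lines mark 1.5-fold. G6pc (mean 3.60) and Pck1 (mean 2.66) lie far above the line on every array, and the means of the other genes lie between -0.02 and 0.46.

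The sequences upstream of 3 of the genes are shown because G6pc and Pck1 are textbook targets of hormonal control at the promoter, and G6pc3 is a form of the same enzyme whose transcript stayed near a ratio of 0. They are the 250 bases before the RefSeq start, written 5′ to 3′ on the gene's strand of GRCm38.p6, at chr11:101367466-101367715 for G6pc, chr2:173152823-173153072 for Pck1 and chr11:102189449-102189698 for G6pc3. Capitals mark exact matches, on either strand, to the cyclic AMP response element TGACGTCA, its shorter core TGACG (which lies within the full element), the TATA box TATAAA or the forkhead motif GTAAACA.
G6pc: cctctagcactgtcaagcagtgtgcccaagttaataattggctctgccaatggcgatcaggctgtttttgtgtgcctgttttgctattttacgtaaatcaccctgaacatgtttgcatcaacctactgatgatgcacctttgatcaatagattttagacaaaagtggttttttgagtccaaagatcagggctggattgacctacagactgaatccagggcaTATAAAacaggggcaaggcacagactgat
Pck1: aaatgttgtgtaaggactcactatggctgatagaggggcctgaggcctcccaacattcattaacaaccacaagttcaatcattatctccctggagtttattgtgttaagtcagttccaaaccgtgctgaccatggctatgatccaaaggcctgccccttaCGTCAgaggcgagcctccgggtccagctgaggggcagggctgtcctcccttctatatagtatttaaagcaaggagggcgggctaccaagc
G6pc3: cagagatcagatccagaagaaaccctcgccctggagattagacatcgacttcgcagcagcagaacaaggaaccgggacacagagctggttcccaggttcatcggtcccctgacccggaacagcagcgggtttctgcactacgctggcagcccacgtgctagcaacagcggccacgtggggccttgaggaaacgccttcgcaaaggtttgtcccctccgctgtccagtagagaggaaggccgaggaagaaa
The G6pc window held 1 match, TATAAA at positions -29 to -24 from the start. The Pck1 window held 1 match, TGACG on the opposite strand at -90 to -86, which reads CGTCA in the line above. The G6pc3 window held 0 matches.

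Of the other genes, Slc37a4 has 3 annotated starts. Start 1 had TGACG at -61 to -57. Start 2 had TGACG at -214 to -210 and on the opposite strand at -82 to -78. Start 3 had TATAAA at -32 to -27. The windows of starts 1 and 2 overlap, and the matches at -61 and -214 are the same site in the genome. The windows of Pck2, Fbp1 and both starts of Pcx held 0 matches. Over the same 250 bases of 32851 promoters in the RefSeq table, TGACG was found in 17.8%, TATAAA in 12.4%, GTAAACA in 3.17% and TGACGTCA in 1.55%. A match describes the letters in the window and is not evidence of binding.

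G6pc, the catalytic subunit of glucose-6-phosphatase in liver, was much higher in fasted than in refed liver. It makes the last step of glucose output, the release of free glucose from glucose-6-phosphate. Its 60-base probe lies at chr11:101238947-101239006 of the mm9 build, and the files do not say in which part of the transcript. Before normalization the G6pc spot read 9443, 13608, 17784.5 and 24196.5 intensity units in the fasted livers of replicates 1 to 4. The paired refed livers read 963, 761, 1977.5 and 2224. Every fasted reading was above every refed one, although the arrays differed in brightness and dye.

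After normalization the log2 level of G6pc was 13.98, 13.74, 13.96 and 14.14 in the fasted livers and 10.32, 9.68, 10.79 and 10.65 in the refed. The fasted livers were close to each other (SD 0.16) and the refed livers varied more (SD 0.49). The log2 ratios were 3.66, 4.07, 3.17 and 3.49, with a mean of 3.60 ± 0.37 (SD, n = 4 arrays). This is a 12.1-fold difference with a 95% interval of 9.51 to 15.4 and an adjusted p = 0.00171 by limma. By mean ratio G6pc ranked 2 among the 14209 genes. Its ratio averaged 3.86 where the fasted liver carried Cy5 and 3.33 where it carried Cy3, and the dye effect had an adjusted p = 0.14 in limma.

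Slc37a4, the transporter that brings glucose-6-phosphate to the enzyme inside the endoplasmic reticulum, was not called. Its log2 ratios were 0.55, 0.28, 0.53 and -0.23, so that 3 of the 4 fasted livers were higher than their refed partners and replicate 4 was lower. The mean was 0.28 ± 0.37 (SD, n = 4 arrays), with a 95% interval from -0.06 to 0.62 and an adjusted p = 0.325 by limma. The interval reaches just above the 1.5-fold limit.

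G6pc3, the glucose-6-phosphatase found in most tissues, was measured by a pair of probes. The brighter one (mm9 chr11:102055338-102055395) gave log2 ratios of 0.34, -0.02, 0.12 and -0.33, and the other (mm9 chr11:102055237-102055296) gave 0.09, -0.07, 0.13 and -0.25. Both probes had the same sign on each array, positive on replicates 1 and 3 and negative on 2 and 4. The means were 0.03 ± 0.28 and -0.02 ± 0.17 (SD, n = 4 arrays), with adjusted p = 0.931 and 0.917 by limma. The 95% interval of the brighter probe ran from -0.26 to 0.31, which leaves out a 1.5-fold difference in either direction. Its sign turned with the scaling and with the arrays used, at -0.08 with median centring.

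On the same array, the log2 ratio of G6pc exceeded that of G6pc3 by 3.57 ± 0.47 and that of Slc37a4 by 3.32 ± 0.55 (SD, n = 4 arrays). Both differences were positive on 4 of 4 arrays. In all, 5 such pairs of genes were compared by an exact two-sided sign-flip permutation test, and each gave p = 0.125, also after adjustment. That is the smallest p that 4 arrays allow, so no pair could pass 0.05.

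Pck1, the cytosolic phosphoenolpyruvate carboxykinase, turns oxaloacetate into phosphoenolpyruvate and so commits carbon to glucose. It was higher in fasted liver on all 4 arrays. Its probe lies at mm9 chr2:172984307-172984366. The raw intensity was 53105.5, 80689.5, 106336 and 118975 in the fasted livers and 13932.5, 5646, 23698 and 25829 in the refed. The groups did not overlap, and the refed liver of replicate 2 was the lowest of the 8.

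The normalised log2 levels of Pck1 in the fasted livers were 16.44, 16.32, 16.53 and 16.52, and in the refed livers 14.14, 12.60, 14.26 and 14.17. The log2 ratios were 2.29, 3.72, 2.27 and 2.35, with a mean of 2.66 ± 0.71 (SD, n = 4 arrays). Replicates 1, 3 and 4 lay within a narrow range, and the wide SD came from replicate 2, whose refed liver was low. The mean is 6.32-fold (95% interval 4.14 to 9.64), with an adjusted p = 0.0062 by limma and a rank of 6 among all genes. Without replicate 2 the mean was 2.31 with an adjusted p = 0.00628 in limma. The Pck1 call was lost in 1 alternative, where the background model was fitted to all spots (2.77, adjusted p = 0.126 by limma).

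**Figure D2:**
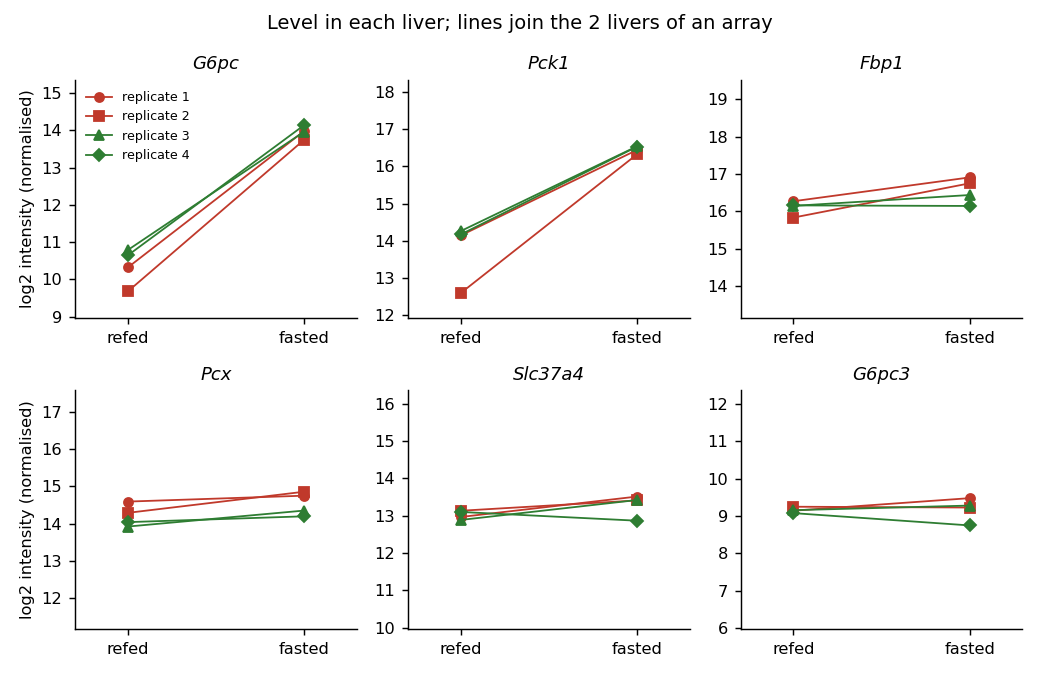
Normalised log2 intensity in each refed and fasted liver for the 6 genes with a kept probe, 1 panel per gene with its own range of equal height; lines join the 2 livers of an array and colours give the dye as in the plot of ratios. The refed and fasted points separate for G6pc and Pck1, the refed liver of replicate 2 is low for Pck1 at 12.60, and the groups overlap in the other 4 panels.

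The ratio of G6pc exceeded that of Pck1 by 0.94 ± 0.44 (SD, n = 4 arrays), on 4 of 4 arrays, with the exact sign-flip p = 0.125. It was smallest on replicate 2, at 0.35, and ran from 0.90 to 1.36 elsewhere. The refed liver of replicate 2 had the lowest level of both genes.

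Pck2, the mitochondrial carboxykinase, was not well above background. It has 10 spots of 1 probe (mm9 chr14:56168027-56168086). In the fasted channel 0 of 10 spots passed on any array, and in the refed channel 1 of 10 passed on replicate 3. The median red signal of its spots was 29 to 49 units over a local background of 24.5 to 34.5, and the median green signal was 28.75 to 66.5 units over 19.5 to 31.25. Both groups have only a bound, so the Pck2 ratios that were computed are not read as a fold.

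Pcx, pyruvate carboxylase, makes oxaloacetate from pyruvate in mitochondria and so feeds the carboxykinases. Its log2 ratios were 0.16, 0.57, 0.43 and 0.16, all positive and all under the 1.5-fold limit. The mean was 0.33 ± 0.20 (SD, n = 4 arrays), with a 95% interval of 0.09 to 0.56 and an adjusted p = 0.112 by limma. Pcx was not called, and its interval ended below 1.5-fold. Over the alternatives its adjusted p ran from 0.0515 to 0.57 in limma and SAM.

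Fbp1, the liver fructose-1,6-bisphosphatase, reverses the step of phosphofructokinase. Its log2 ratios were 0.64, 0.92, 0.29 and -0.02, with a mean of 0.46 ± 0.41 (SD, n = 4 arrays). The limma fit gave a 95% interval of 0.08 to 0.83 and an adjusted p = 0.151, so Fbp1 was not called. The higher values came from the arrays with the fasted liver in Cy5 (mean 0.78), and the Cy3 arrays averaged 0.14.

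Fbp1 was the 1 gene of the 6 with a dye effect under the limit (adjusted p = 0.0749 by limma), against 15.6% of all genes. With a dye term in the model the adjusted p of its fasting ratio was 0.0161, and it stayed uncalled for its size. In that model 2 of the 6 genes were called higher, again G6pc and Pck1, against 2.21% of all genes. Replicates 1 and 2 also had the higher ratios of the periportal hepatocyte list, at array means of 0.61, 0.60, 0.17 and -0.04. The split was not particular to that list. The general hepatocyte list had array means of 0.30, 0.37, -0.15 and -0.12, and the reversible steps 0.14, 0.33, -0.11 and -0.32. The pericentral hepatocyte list was not split in this way, at -0.10, 0.16, 0.22 and 0.03. Of the periportal list 6 of 6 genes were measured. The log2 of their summed intensity, in which the brightest genes weigh most, was 17.46 to 18.10 in fasted and 17.47 to 17.65 in refed livers. The part of hepatocyte markers in the Fbp1 ratio was not tested, and dye orientation and the particular livers cannot be told apart.

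**Figure D3:**
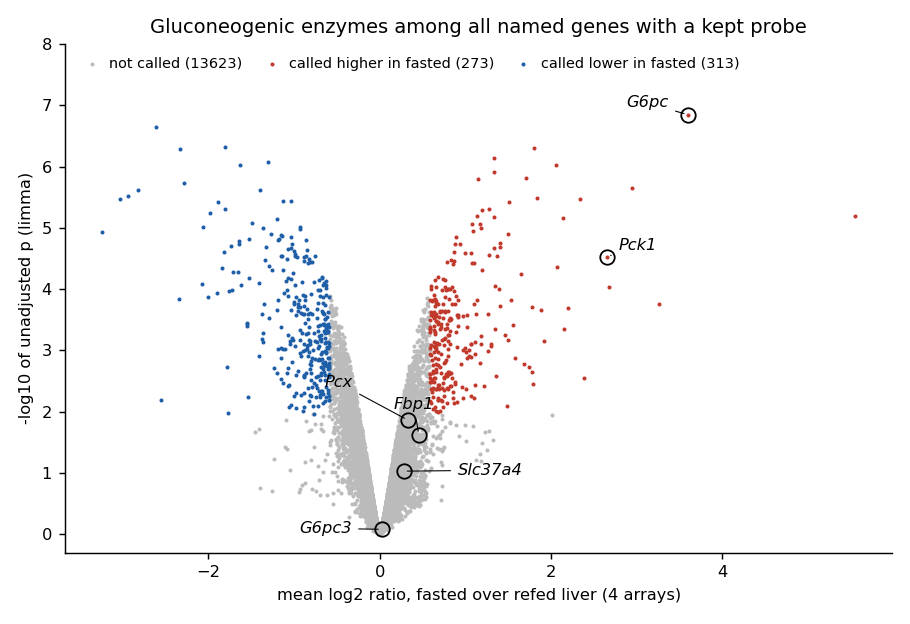
Mean log2 ratio of fasted over refed liver against -log10 of the unadjusted limma p for 14209 named genes, with the 273 called higher in red, the 313 called lower in blue and the 6 measured gluconeogenic genes circled. By mean ratio G6pc ranks 2 and Pck1 ranks 6 among all genes, and Fbp1, Pcx, Slc37a4 and G6pc3 lie within the grey mass of uncalled genes.

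The genes around these steps were read from lists. Of the 2 tissue-restricted paralogs, G6pc2 and Fbp2, 0 had a kept probe. The 9 enzymes of the reversible steps, which serve both directions, were all measured, with a median log2 ratio of -0.01. Of them 0 were called, against 1.92% of all genes called higher and 2.20% lower. Among the brightest were the dehydrogenase Gapdh at -0.01 ± 0.45, Mdh2 at 0.09 ± 0.28 and Mdh1 at -0.03 ± 0.54 (SD, n = 4 arrays).

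Of 13 genes for the entry of precursors, 12 were measured. Of these 3 were called higher and 0 lower, against 1.92% and 2.20% of all genes. The median log2 ratio was 0.18, and it ran from 0.15 to 0.33 with 1 array left out. The aspartate aminotransferase Got1 had ratios of 2.14, 2.25, 1.45 and 0.47, with a mean of 1.58 (adjusted p = 0.034 by limma). The tyrosine aminotransferase Tat had 1.19, 1.25, 0.61 and 0.30, with a mean of 0.84 (adjusted p = 0.0452 by limma). Pdk4, a kinase that inhibits pyruvate dehydrogenase and so spares pyruvate, had 0.53, 0.60, 1.98 and 2.86, with a mean of 1.49 (adjusted p = 0.0837 by limma).

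In Got1 and Tat the higher ratios were on the Cy5 arrays, and in Pdk4 on the Cy3 arrays. The dye effect had adjusted p = 0.0699, 0.0471 and 0.0331 in limma, in that order. None of these calls held in every set of 3 arrays, although the mean stayed positive in each. Got1 was not called without replicate 2 (1.35) or 3 (1.62). Tat was not called without replicate 1 (0.72), 2 (0.70) or 3 (0.91), nor Pdk4 without 2 (1.79), 3 (1.33) or 4 (1.04). The count for the list was 0 without replicate 2 or 3 and 2 without 1 or 4. The brightest uncalled genes were the lactate dehydrogenase Ldha at 0.36 ± 0.45, Gpd1 at 0.13 ± 0.50, the mitochondrial pyruvate carrier Mpc1 at 0.09 ± 0.34 and Gpt at -0.02 ± 0.12 (SD, n = 4 arrays).

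Of 12 regulators of the pathway, all measured, 3 were called higher and 0 lower, against 1.92% and 2.20% of all genes. The median was 0.45. The coactivator Ppargc1a had log2 ratios of 0.97, 1.33, 1.25 and 1.25, the most even of the 3, with a mean of 1.20 (adjusted p = 0.00339 by limma). That is its brighter probe, and the other kept probe of Ppargc1a had a mean of 0.45 and was not called, so the call depends on the probe. The transcription factor Cebpb had 0.86, 1.91, 1.40 and 1.42, with a mean of 1.40 (adjusted p = 0.0116 by limma). The insulin receptor substrate Irs2 had 1.38, 0.92, 1.21 and 1.88, with a mean of 1.35 (adjusted p = 0.011 by limma). All 3 were called without any one array. With a dye term 5 of the 12 were called higher, against 2.21% of all genes. The added ones were the transcription factor Foxo1 (mean 0.62) and the kinase Sik1 (mean 0.82). Foxo1 had ratios of 0.23, 1.37, 0.42 and 0.47. Without replicate 2 its mean was 0.38, under the 1.5-fold limit. Sik1 had 0.59, -0.06, 1.28 and 1.48 at a low mean log2 intensity of 7.44. In the model with no dye term Sik1 passed without replicate 2, at 1.12, and not without 1, 3 or 4. Foxo1 and Sik1 are named after their values were seen. The brightest uncalled regulators were Hnf4a at -0.01 ± 0.24, the glucagon receptor Gcgr at 0.16 ± 0.31, Klf15 at 0.41 ± 0.81 and the glucocorticoid receptor Nr3c1 at -0.18 ± 0.23 (SD, n = 4 arrays). Klf15 was at 1.05 and 1.18 on the Cy5 arrays and at -0.24 and -0.34 on the Cy3 arrays. Its dye effect had an adjusted p = 0.00585 in limma.

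Of the zonal lists, 0 of 6 periportal and 0 of 7 pericentral genes were called, with medians of 0.33 and 0.02. Among all genes 1.92% were called higher and 2.20% lower. With 1 array left out the medians ran from 0.24 to 0.52 and from -0.07 to 0.15. With a dye term 1 of the 6 periportal genes was called higher, Hal of histidine breakdown, and 0 of the 7 pericentral genes, against 2.21% of all genes. Among the brightest periportal genes were Ass1 of the urea cycle at 0.35 ± 0.60, the cytochrome Cyp2f2 at -0.02 ± 0.10 and Hal at 0.59 ± 0.64 (SD, n = 4 arrays). The brightest pericentral genes were the cytochrome Cyp2e1 at 0.26 ± 0.54, Rgn at -0.29 ± 0.95, Oat at 0.35 ± 0.64 and the glutamine synthetase Glul at -0.00385 ± 0.36. The ratios of Rgn (-1.15, -1.06, 0.37 and 0.68) and Oat (0.76, 1.03, -0.09 and -0.29) changed sign with the dye. Their dye effects had adjusted p = 0.00633 and 0.0272 in limma.

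**Figure D4:**
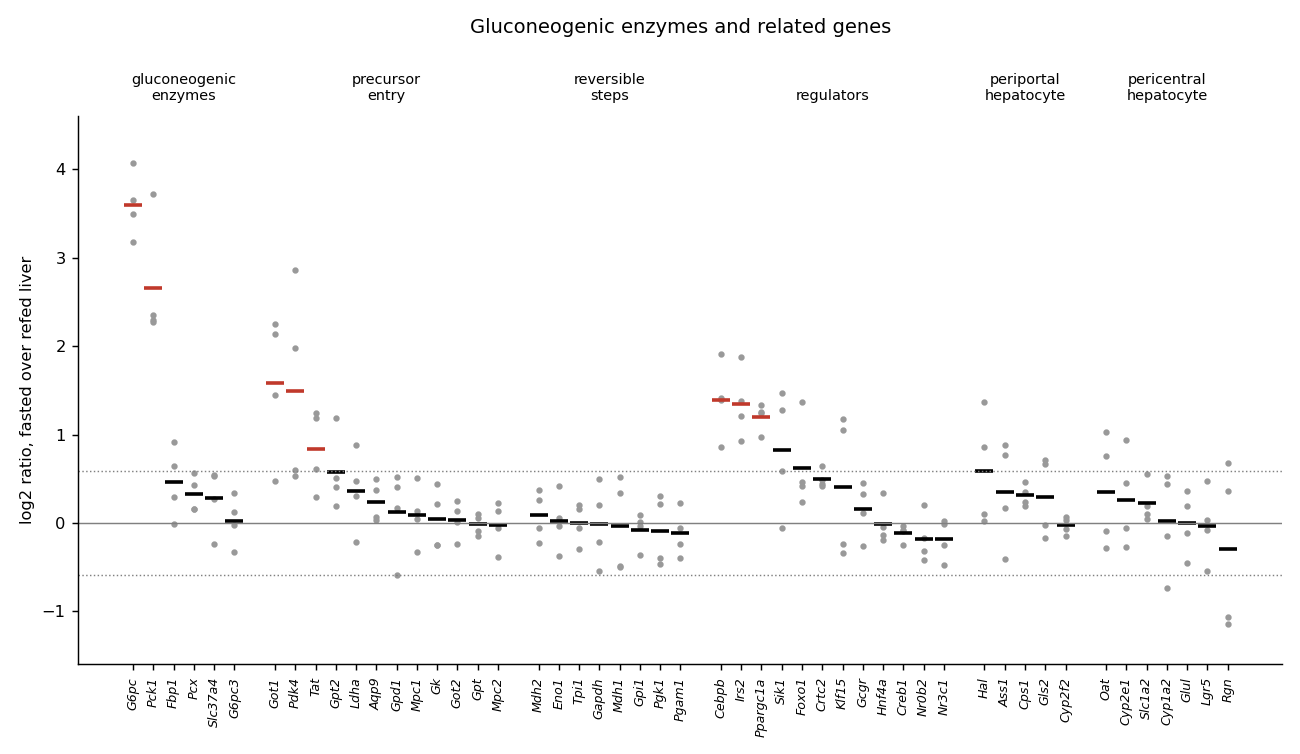
Log2 ratio of fasted over refed liver for the measured gluconeogenic enzymes and genes of 5 related lists, with grey points for the 4 arrays, bars for their mean (red called higher, black not called) and dotted lines at 1.5-fold. G6pc (mean 3.60) and Pck1 (mean 2.66), at the left, have the highest means shown.

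The genes whose 4 array ratios lay nearest to those of the called enzymes were found among 14203 genes by the root mean square difference of log2 ratios over 4 arrays. Nearest to Pck1 were Lpin1 (0.234), Angptl4 (0.383) and Gadd45g (0.559). Lpin1 had ratios of 2.32, 3.92, 1.90 and 2.56. Replicate 2 was the highest array for Lpin1 and Pck1, and also for Angptl4 (3.66), Gadd45g (2.73), Mt2 (4.51) and G6pc (4.07). The search picks genes by closeness over these same arrays, so a shared high array is no separate evidence of likeness. Nearest to G6pc were Angptl4 (0.663), Mt2 (0.882) and Lpin1 (1.04), all with smaller means than G6pc. Because G6pc ranked 2 by mean ratio, few genes could lie near it. The larger differences therefore do not show a looser likeness than for Pck1.

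The calls of G6pc and Pck1 did not turn on a single array. Without replicate 3, whose refed liver held acinar transcripts, the mean ratios were 3.74 and 2.79 with adjusted p = 0.00584 and 0.0294 by limma. On the arrays with blood marker means above 1, which were replicates 1 and 3, G6pc was at 3.66 and 3.17 and Pck1 at 2.29 and 2.27. On the other arrays G6pc was at 4.07 and 3.49 and Pck1 at 3.72 and 2.35. The part of acinar or blood transcripts in these ratios was not tested.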

How the data were processed

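Total RNA of 4 fasted and 4 refed livers was labelled with Cy3 or Cy5 and hybridised in pairs to 4 two-colour arrays of 44397 spots. The scanner files deposited by the authors hold spot intensity and local background, per the file headers from Feature Extraction 10.10.1.1. The authors also deposited a table of log2 ratios, normalised within arrays in limma, which was used as an alternative. Its rows were matched by row number (r = 0.976 to 0.992 with the scanner ratios), its columns already ran as fasted over refed, and their medians were -0.117, -0.081, 0.057 and 0.014. Its background step is not given in the sources used here.

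Median intensities were taken from the files and processed in limma 3.58.1 (R 4.3.3). Spots with a local background over 3 times the array median (0 to 29 per array) and those with outlier flags (197 to 322) were left out, and no spot was saturated. Normexp (offset 50) and loess followed, with control spots at weight 0. Median signals were 40 to 96 units over backgrounds of 20 to 35. The number of arrays limits the precision. Probes well above background on all 4 arrays in at least 1 condition were kept (19721 of 39429), and a gene was read from its brightest kept probe. Ratios were turned by dye and tested with lmFit and eBayes, and p-values were adjusted across every kept probe by Benjamini-Hochberg. The limits of a 10% false discovery rate and 1.5-fold follow the study, with limma in place of SAM. The tests were checked on simulated data.

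Livers were paired on the array, so each ratio carries that pairing. The genes, lists and the background rule were chosen with earlier results of these data known. Named were all 7 genes and, from each pathway list, the called genes and up to 4 others with the highest intensity, and the 3 genes nearest to each called enzyme. Some genes that this rule selects, and 1 list, are not reported here. Alternatives covered background, normalisation, filters, dye, pairing, test, limits, probe choice and arrays left out.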

Additional observations from a re-analysis of the deposited data

Results flagged for a closer look

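Of 22 sets of 4 array values examined, 3 had 1 array far from the others, by a test that picks about 1 in 20 sets by chance. The Pck1 log2 ratio was 3.72 on replicate 2, a gap of 0.944 of the range over the 4 arrays. The mean log2 ratio of the pancreatic acinar list was -3.26 on replicate 3 (gap 0.995 of the range). The mean of the endothelial list was -0.16 on replicate 3 (gap 0.894), where Lyve1 alone was at -1.26.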

How the results depend on the processing

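Over 20 alternatives G6pc was called higher in every one (3.33 to 3.74) and Pck1 in 19 (2.31 to 2.79), and Fbp1 (0.30 to 0.62), Pcx (0.18 to 0.38) and Slc37a4 (0.13 to 0.45) in none of the 20. With normexp on all spots, 5 probes were called higher and 14 lower in place of 335 and 410, 1 gluconeogenic gene was called, and Pck1 was at 2.77 (adjusted p = 0.126 by limma). The counts were 550 and 715 with plain subtraction, 686 and 904 with Agilent's processed signals, and 935 and 1215 with no fold limit. Median centring gave 230 higher and 635 lower, and G6pc3 turned to -0.0759. It moved the median of the named genes to -0.05, and relative to that G6pc3 was at -0.02. Leaving out 1 array gave 208 to 412 probes higher and 256 to 525 lower, the lowest without replicate 3. G6pc3 then ran from -0.0762 (without replicate 1) to 0.15, with -0.0052 without replicate 3. The Pck2 ratio, of a probe not well above background and so no measure of a change, was at 0.15 with plain subtraction and -0.0323 in the authors' ratios. With the channels fitted separately and the pairing dropped (no replicate block), 321 and 394 probes were called and G6pc and Pck1 kept their calls (adjusted p = 0.000261 and 0.00385 by limma). The cause of these shifts was not tested. Signal over background limits Pck2, whose level could not be measured here.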
